A study of Mus musculus with 4 samples.

Results

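The genes of TGF-beta, activin, Nodal and BMP signalling were examined in wild-type (WT) and Haspin-KO mouse embryonic stem cells (mESCs) by RNA sequencing. The set held 43 genes, taken by gene symbol from the 55401 genes of the deposited table, and 41 of them passed the filter on low counts that left 15580 genes for testing. Fstl3, an activin-binding antagonist, and Nog, a secreted BMP antagonist, did not pass it. By role, 21 genes belonged to the TGF-beta/activin branch, 5 to the Nodal branch and 13 to the BMP branch, and 4 were Smads or feedback regulators that the branches share.

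Both groups were E14 mESCs, an established mouse line, grown with serum, LIF and the inhibitor pair called 2i, which blocks Mek and Gsk3. WT cells carried no edit, and Haspin-KO cells were made by CRISPR/Cas9 with a pair of guide RNAs, followed by the picking of single clones that lacked phosphorylation of histone H3 at threonine 3. Each group had 2 libraries, and the labels give neither the clone behind each Haspin-KO library nor whether the libraries of a group came from separate cultures, so the p-values measure the spread between these libraries only. The cells were passaged on mouse embryonic fibroblasts treated with mitomycin or plated on gelatin for assays, and which of these preceded the RNA extraction is not stated.

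Ligands of the TGF-beta family are secreted dimers that bring together type I and type II receptor kinases. TGF-beta, activin and Nodal receptors phosphorylate Smad2 and Smad3, whereas BMP receptors phosphorylate Smad1 and Smad5, and both kinds of Smad enter the nucleus with Smad4. In mESCs, Nodal and activin signals maintain Smad2 activity and the transcription of the Lefty genes, while BMP signals induce the Id genes, which encode inhibitors of differentiation factors.

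Library totals were 21834847 and 17452307 counts for WT and 14207828 and 14436750 counts for Haspin-KO. Haspin itself had TMM counts scaled to a common library size (CPM) of 40.1 and 35.7 in WT and 10.4 and 14.6 in Haspin-KO, a log2 fold change of -1.60 with a standard error (SE) of 0.159 and an edgeR adjusted p of 0.00154. Transcript of the targeted gene thus remained in both Haspin-KO libraries. All 14 listed mESC markers were tested and 0 were called, with summed levels of 6940 and 7160 CPM in WT and of 6640 and 6690 CPM in Haspin-KO. A list of 20 fibroblast markers was much lower in Haspin-KO, with summed levels of 314 and 236 CPM in WT and of 41.2 and 44.5 CPM in Haspin-KO. In such bulk libraries, fewer cells of a type and less RNA per cell cannot be told apart.

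A gene counted as differentially expressed (a DEG) when its edgeR p, adjusted over all genes tested, was under 0.05 and its level differed more than 2-fold. Of the 41 tested members, 5 were DEGs, or 12.2%, beside 0.828% of all genes tested. All 5 were lower in Haspin-KO, where the background was 0.501%, and 0 members were higher DEGs, where it was 0.327%. The 5 were Inhba, Tgfb3, Ltbp2 and Lrrc32 of the TGF-beta/activin branch and Grem1 of the BMP branch. Members were chosen with earlier results of these data known, so the shares of members given here are no test of the pathway. Inhba, Tgfb3, Lrrc32 and Grem1 passed the filter on low counts only through their WT libraries. At an adjusted p under 0.05 with no minimum fold, 7 of 41 members were called, or 17.1%, beside 2.5% of all genes tested. This added Lefty2 among 6 lower members, where the background was 1.51%, and Id1 as the 1 higher member, where the background was 0.988%. DESeq2 called 91 of 12551 genes as DEGs, or 0.725%, with Inhba and Ltbp2 among them. Limma on FPKM called 0 of 14817 genes at either threshold. Grem1, Tgfb3 and Lrrc32 received no adjusted p from DESeq2 and fell under the FPKM minimum for limma, so they were tested by edgeR only. With each library left out in turn, between 2 and 6 members were lower DEGs, with 2 without WT replicate 1, while Inhba and Ltbp2 were DEGs each time.

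**Figure D1:**
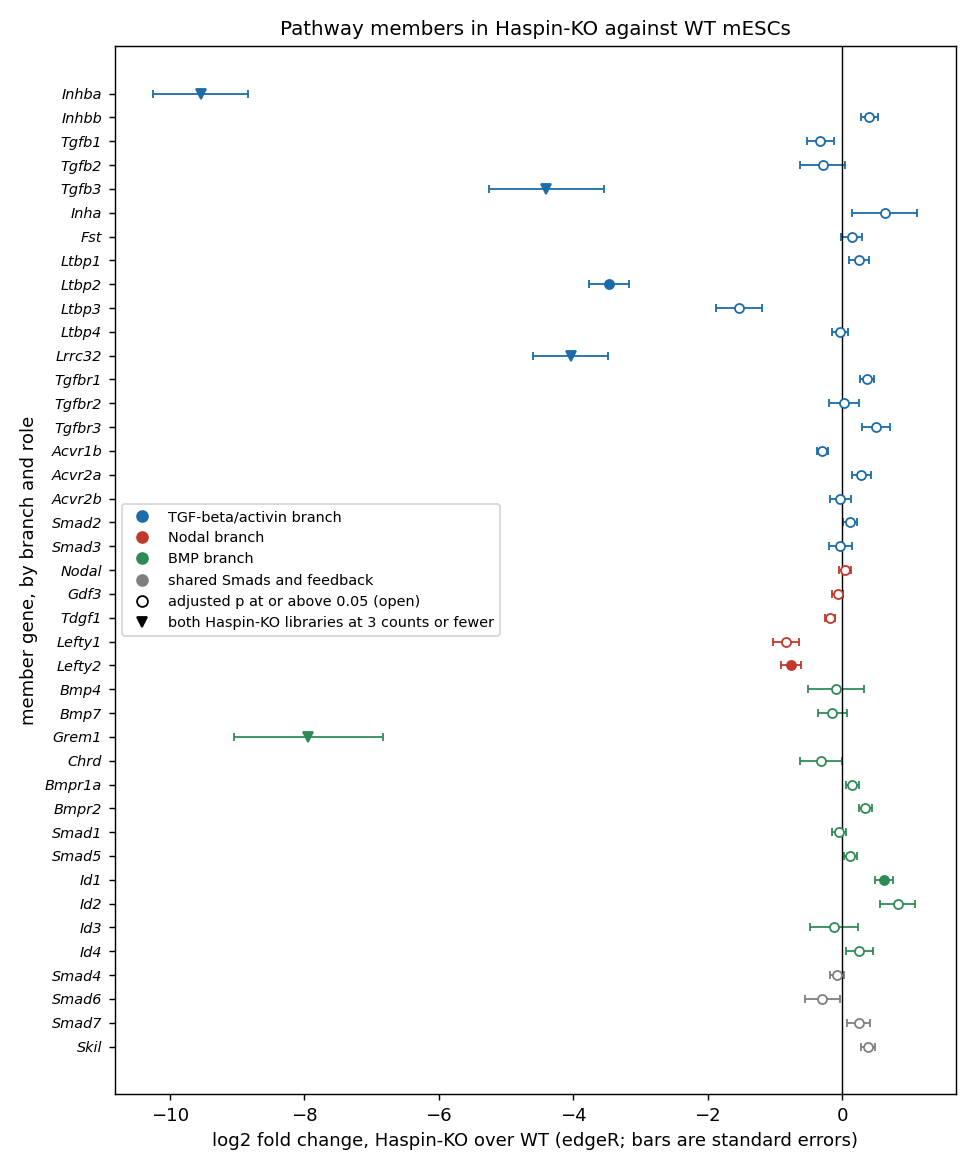
Log2 fold change of Haspin-KO over WT for the 41 tested members on the x axis, with bars for the standard error of the edgeR fit, listed by branch and role. Filled symbols had an adjusted p under 0.05, and triangles mark the 4 genes with at most 3 counts in each Haspin-KO library, whose fitted value depends on the fit's prior count. Most members lay close to 0, and the far values on the left belong to Inhba, Grem1, Tgfb3, Lrrc32 and Ltbp2.

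The other 34 tested members had adjusted p-values at or above 0.05, and 29 of those had log2 fold changes within 0.5 of 0. The exceptions were Id2, Inha, Lefty1, Ltbp3 and Tgfbr3. Both Haspin-KO libraries lay below both WT libraries in 11 of 41 members, or 26.8%, beside 26.9% of all genes tested. They lay above both WT libraries in 12 of 41, or 29.3%, beside 25.3% of all genes tested. The share of members with groups that did not overlap was therefore near the background in both directions. The median log2 fold change was 0.00 over all genes tested and -0.04 over the tested members. It was -0.03 in the TGF-beta/activin branch, with values from -9.54 to 0.63. It was -0.18 in the Nodal branch, with values from -0.84 to 0.04, and 0.04 in the BMP branch, with values from -7.94 to 0.82. Setting genes at 0 in both Haspin-KO libraries to their lower bound did not move the median of the members.

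Levels of different genes are given per length, as the deposited FPKM (fragments per length of exon and library total). The most abundant member was Tdgf1, with means of 184 FPKM in WT and 163 FPKM in Haspin-KO, followed by Gdf3 with 63.1 and 60.3 FPKM, Nodal with 40.1 and 41.5 FPKM and Ltbp4 with 38.5 and 37.6 FPKM. The DEGs came from the low end of this scale. Among the 9 tested members with a mean WT level under 1 FPKM, 4 were DEGs, beside 1.66% of all genes tested at that level. These 4 passed the filter on low counts only through WT, and members were chosen with earlier results known, so this share is no test. Among the 12 members with at least 10 FPKM in WT, 0 were DEGs, beside 0.211% of all genes tested at that level. The fifth DEG, Ltbp2, had a mean of 2.16 FPKM in WT.

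**Figure D2:**
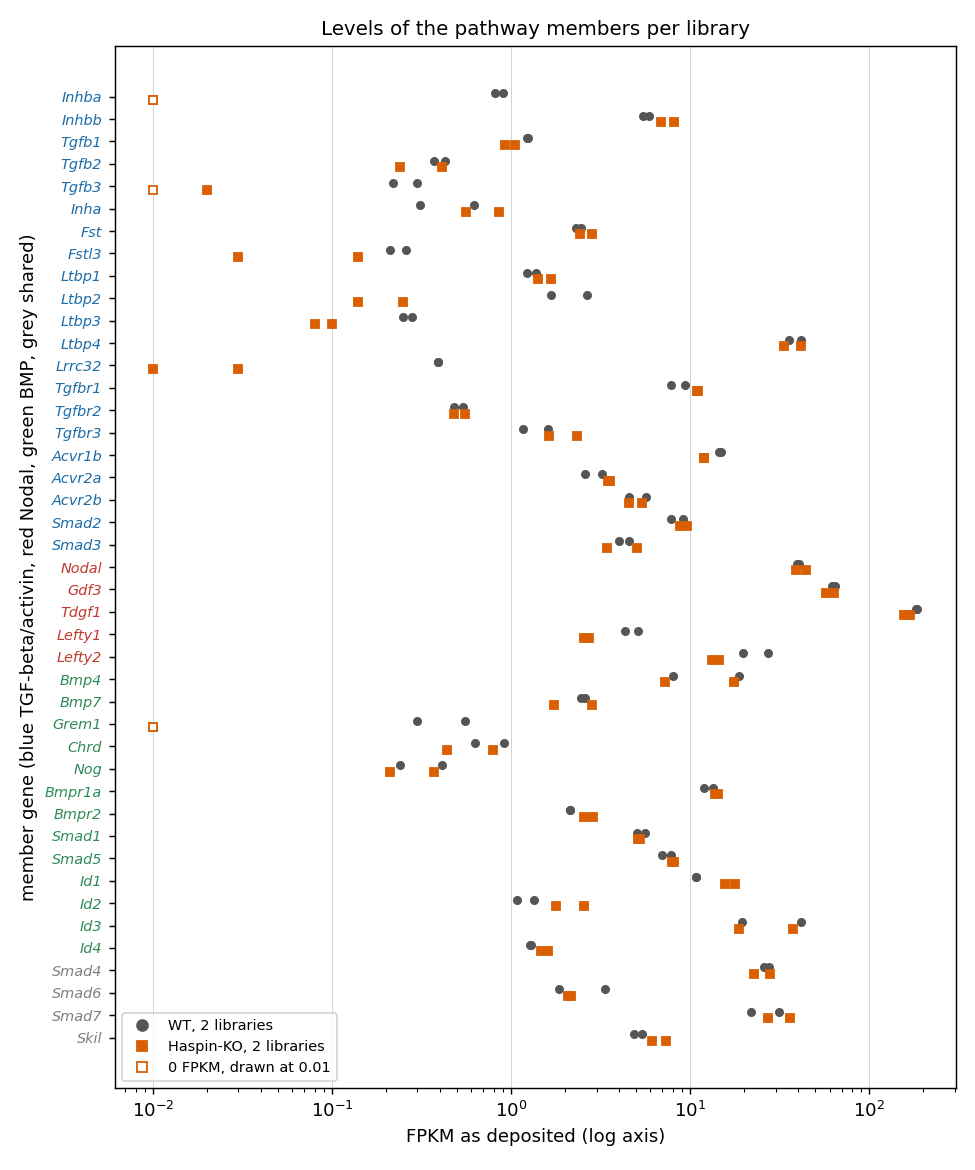
Deposited FPKM of the 43 members in each of the 2 WT libraries (grey circles) and 2 Haspin-KO libraries (orange squares), on a log axis, with 0 drawn as an open square at 0.01. Tdgf1 lies farthest to the right, and Inhba and Grem1 have both Haspin-KO libraries at 0.

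Inhba, which encodes the activin A subunit beta-A, had no counts in Haspin-KO. The gene lies on the plus strand of chromosome 13 (mm10, chr13:16011851-16031621, ENSMUSG00000041324). The 250 bases before its RefSeq start (GRCm38.p6, plus strand, chr13:16011601-16011850) are shown because Inhba had the most WT counts of the members with 0 counts in both Haspin-KO libraries. The capitals mark TATAAA, known as the TATA box motif and here starting 91 bases before the start, which 12.4% of 32851 promoter windows of this length held on either strand. A match of letters is no evidence that it acts as a TATA box. Windows of Tgfb2 and Fstl3, which were not DEGs, held TATAAA too on either strand.
Inhba promoter: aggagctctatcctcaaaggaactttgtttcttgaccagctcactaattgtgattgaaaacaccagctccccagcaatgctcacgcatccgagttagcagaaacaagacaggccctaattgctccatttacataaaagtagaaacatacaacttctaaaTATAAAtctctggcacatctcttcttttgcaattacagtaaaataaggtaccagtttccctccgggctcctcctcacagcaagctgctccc

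Inhba had 126 and 90 counts in WT, or 5.77 and 5.19 CPM, and 0 and 0 counts in Haspin-KO. Haspin-KO was thus below WT in every library. The mean WT level of Inhba was 26.2 times a floor of 3 counts per Haspin-KO library, with the spread of WT left out. The edgeR adjusted p was 0.000567, and the fitted log2 fold change of -9.54 depends on the prior count. Inhbb, which encodes the beta-B subunit of activin B, had 23.1 and 25.3 CPM in WT and 29.1 and 34.8 CPM in Haspin-KO. Its Haspin-KO libraries were both above the WT libraries, with a log2 fold change of 0.40 (SE 0.123) and an adjusted p of 0.113 by edgeR. The summed level of both activin subunit genes was 29.7 ± 1.15 CPM in WT and 31.9 ± 4.03 CPM in Haspin-KO (mean ± SD, n = 2). Per length, Inhba made up 14.2% and 12.1% of the FPKM of both subunit genes in the WT libraries and 0% in the Haspin-KO libraries, so Inhbb held most of the activin subunit RNA in both groups.

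The TGF-beta ligand genes were all of low or moderate level. Tgfb3 (chr12:86056745-86079041, minus strand) had 22 and 13 counts in WT, or 1.01 and 0.75 CPM, and 1 and 0 counts in Haspin-KO. The groups did not overlap, and the WT level was 25.6 times the Haspin-KO level over summed counts, with an exact 95% counting interval of 4.30 to 1040 (edgeR log2 fold change -4.40, SE 0.86, adjusted p = 0.0329). This call was lost without WT replicate 2 (adjusted p = 0.118) and without Haspin-KO replicate 2 (adjusted p = 0.0619) in edgeR, and Tgfb3 was not tested without WT replicate 1. Of its exon bases, 7.6% overlap Gm48008 and 4.82% overlap Gm37804, both on the opposite strand. Tgfb1 had 6.27 and 6.17 CPM in WT and 5.22 and 4.69 CPM in Haspin-KO, with a log2 fold change of -0.33 (SE 0.198) and an edgeR adjusted p of 0.377. Tgfb2 had a log2 fold change of -0.29 (SE 0.334), and its groups overlapped.

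Among the activin antagonists, Fst, which encodes follistatin, was the most abundant, with 10.6 and 11.4 CPM in WT and 10.9 and 13.2 CPM in Haspin-KO. Its groups overlapped, with a log2 fold change of 0.14 (SE 0.158). Inha, the inhibin alpha subunit gene, had 10 and 16 counts in WT and 18 and 12 counts in Haspin-KO, and its groups overlapped as well. Fstl3 had 14 and 9 counts in WT and 5 and 1 in Haspin-KO, and 47.3% of its exon bases overlap Prss57 on the opposite strand.

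Secreted TGF-beta is held in a latent complex by the latent TGF-beta binding proteins (Ltbp) or, on the cell surface, by the product of Lrrc32, known as GARP. Ltbp2, an extracellular matrix protein of this family that is not known for binding latent TGF-beta, lies on chromosome 12 (chr12:84783212-84876532, minus strand, ENSMUSG00000002020). It had 21.7 and 13.8 CPM in WT and 2.02 and 1.19 CPM in Haspin-KO. Both WT libraries were well above both Haspin-KO libraries. Ltbp2 fell 11.1-fold (log2 fold change -3.47, SE 0.303, edgeR adjusted p = 0.000675), and it was called without each library in turn. In GENCODE M21, 9.34% of its exon bases overlap D030025P21Rik on the opposite strand, and the strand setting of the counting is not given in the sources used here.

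Lrrc32 (chr7:98489283-98502181, plus strand) had 40 and 32 counts in WT, or 1.83 and 1.85 CPM, and 2 and 1 counts in Haspin-KO. The groups did not overlap, and the WT level was 17.5 times the Haspin-KO level, with an exact 95% counting interval of 5.77 to 87.1 (edgeR log2 fold change -4.04, SE 0.553, adjusted p = 0.00776). The adjusted p was 0.0616 without WT replicate 1 and 0.0577 without WT replicate 2. Ltbp3, whose product does bind latent TGF-beta, had 56 and 40 counts in WT and 13 and 11 counts in Haspin-KO (2.56, 2.31, 0.905 and 0.77 CPM). The groups did not overlap, but the log2 fold change of -1.53 (SE 0.342) had an edgeR adjusted p of 0.0511. That p passed the threshold when genes needed at least 10 counts in every library (0.0379), with no filter on low counts (0.00342) and without Haspin-KO replicate 1 (0.0314). The other latency genes were different. Ltbp4, the most abundant of them, had 230 and 269 CPM in WT and 213 and 273 CPM in Haspin-KO, and Ltbp1 had a log2 fold change of 0.25 (SE 0.147, edgeR adjusted p = 0.371).

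**Figure D3:**
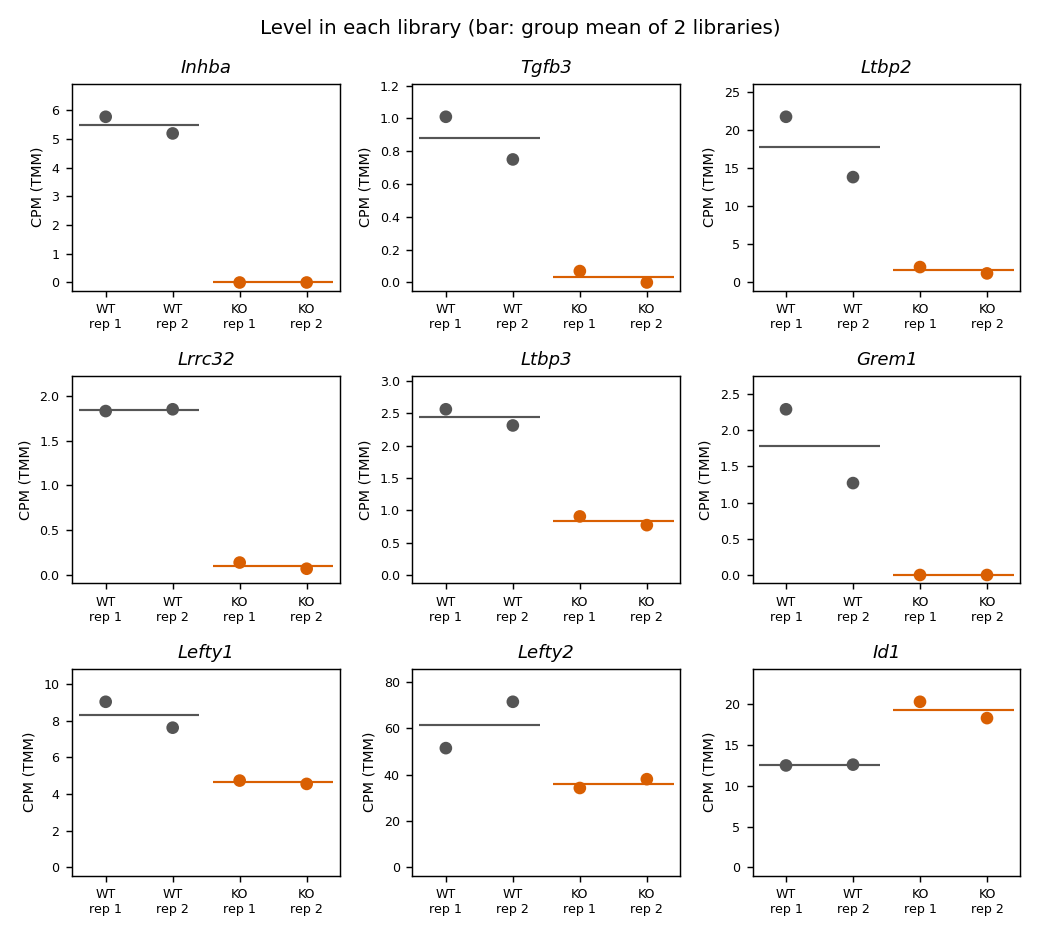
TMM-scaled CPM in each library for the 7 members with an adjusted p under 0.05 and for Ltbp3 and Lefty1, with points for libraries and bars for the mean of 2 libraries. Each panel has its own y axis starting at about 0. Inhba and Grem1 stand at 0 in both Haspin-KO libraries, and Id1 is the one gene of the 9 with Haspin-KO above WT.

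The genes that receive and transmit the signal in the TGF-beta/activin and BMP branches were not among the DEGs. The 13 receptor genes and signalling Smads, Smad4 included, had log2 fold changes between -0.30 and 0.50 (edgeR adjusted p from 0.089 to 0.973). Of these 13, 0 had an adjusted p under 0.05, which is near the 2.5% of all genes tested. Their mean WT levels lay between 0.51 and 26.7 FPKM. The lowest adjusted p belonged to Bmpr2, a type II BMP receptor gene with 38.3 and 38.7 CPM in WT and 51.0 and 46.3 CPM in Haspin-KO (log2 fold change 0.34, SE 0.094). Acvr1b, the type I activin and Nodal receptor gene, had 63.8 and 66.1 CPM in WT and 52.1 and 53.3 CPM in Haspin-KO. Its groups did not overlap, with a log2 fold change of -0.30 (SE 0.0841) and an edgeR adjusted p of 0.0904. Tgfbr1, the type I TGF-beta receptor gene, had the opposite sign, with 50.8 and 61.4 CPM in WT and 71.8 and 71.9 CPM in Haspin-KO (log2 fold change 0.36, SE 0.103, edgeR adjusted p = 0.0984).

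Bmpr1a, the most abundant BMP receptor gene, had 75.7 and 85.3 CPM in WT and 86.4 and 92.3 CPM in Haspin-KO (log2 fold change 0.15, SE 0.0897). Smad2, the most abundant Smad of the TGF-beta/activin branch, had 69.0 and 80.5 CPM in WT and 76.0 and 84.7 CPM in Haspin-KO. Smad5 of the BMP branch had 51.9 and 58.3 CPM in WT and 59.9 and 59.7 CPM in Haspin-KO. Smad4, the common partner, had 96.1 and 103 CPM in WT and 83.6 and 105 CPM in Haspin-KO. The groups of Smad2 and Smad4 overlapped, and those of Smad5 lay close together. The log2 fold changes were 0.11 (SE 0.101) for Smad2, 0.12 (SE 0.0919) for Smad5 and -0.08 (SE 0.109) for Smad4.

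Of the feedback inhibitors, Smad7 blocks type I receptors of all branches, Smad6 acts mainly on BMP signalling, and Skil encodes the Smad co-repressor SnoN. Smad7 had 98.5 and 143 CPM in WT and 121 and 165 CPM in Haspin-KO, with groups that overlapped (log2 fold change 0.24, SE 0.177). Smad6 had 10.7 and 5.94 CPM in WT and 6.89 and 6.72 CPM in Haspin-KO, so the WT libraries enclosed the Haspin-KO libraries. Skil had 52.4 and 47.4 CPM in WT and 70.1 and 60.1 CPM in Haspin-KO, with a log2 fold change of 0.38 (SE 0.103) and an edgeR adjusted p of 0.084.

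In the Nodal branch, the ligands and the co-receptor had high levels with small differences, and the lower values belonged to the Lefty antagonists. Nodal had 82.9 and 85.7 CPM in WT and 91.4 and 82.4 CPM in Haspin-KO, so its groups overlapped (log2 fold change 0.04, SE 0.0854). Gdf3, a related ligand that also signals through the Nodal co-receptor, had 150 and 156 CPM in WT and 138 and 155 CPM in Haspin-KO (log2 fold change -0.07, SE 0.0822). Tdgf1, which encodes the Nodal co-receptor Cripto, had 480 and 489 CPM in WT and 404 and 450 CPM in Haspin-KO. Its groups did not overlap, but the log2 fold change was only -0.18 (SE 0.0742, edgeR adjusted p = 0.203), and 8.86% of the 50-base words of its transcripts also occur in Tdgf1-ps1.

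Lefty1 and Lefty2 are neighbouring genes on the plus strand of chromosome 1 (mm10, chr1:180935022-180938400 and chr1:180893108-180899103) that encode secreted inhibitors of Nodal. Their coding sequences, of 1104 bases each, were identical at 1014 positions, or 91.8%, with a longest identical run of 140 bases. Of the 50-base words of Lefty1 transcripts, 17.9% also occur in Lefty2, and 12.0% of those of Lefty2 transcripts are shared. Reads that lie wholly within an identical stretch therefore cannot be placed with certainty, whereas the stretches that differ separate both genes. How many reads this concerns depends on read length and pairing and was not tested. An example of each kind of stretch is given by 2 coding windows of 60 bases in GRCm38. The first pair is the least alike stretch, in coding exon 1 (Lefty1 chr1:180935143-180935202, Lefty2 chr1:180893217-180893276, plus strand), with the 18 differing bases in capitals. The second pair, in coding exon 2 (Lefty1 chr1:180936568-180936627, Lefty2 chr1:180894156-180894215), has 0 differences and no capitals.
Lefty1 exon 1: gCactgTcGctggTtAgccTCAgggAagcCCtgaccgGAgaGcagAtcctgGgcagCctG
Lefty2 exon 1: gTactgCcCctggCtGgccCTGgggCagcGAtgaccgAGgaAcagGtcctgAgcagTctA
Lefty1 exon 2: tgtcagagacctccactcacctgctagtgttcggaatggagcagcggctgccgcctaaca
Lefty2 exon 2: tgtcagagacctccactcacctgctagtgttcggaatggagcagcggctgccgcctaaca

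Lefty2 had 51.5 and 71.5 CPM in WT and 34.3 and 38.1 CPM in Haspin-KO. The groups did not overlap, and Lefty2 fell by 41.0% (log2 fold change -0.76, SE 0.147, edgeR adjusted p = 0.0317). Without WT replicate 2, the higher WT library, the log2 fold change was -0.51 with an adjusted p of 0.119 in edgeR. Lefty1 had 9.02 and 7.61 CPM in WT and 4.73 and 4.55 CPM in Haspin-KO, a log2 fold change of -0.84 (SE 0.195) with an edgeR adjusted p of 0.0559. That p was under 0.05 without Haspin-KO replicate 1 (0.0277) or replicate 2 (0.0493) and with no filter on low counts (0.00569), and above it without either WT library. How reads from identical stretches were counted is not given in the sources used here, so both genes were also summed. The sum cannot restore reads that were left uncounted. The sum was 60.6 and 79.1 CPM in WT and 39.0 and 42.7 CPM in Haspin-KO, with a log2 fold change of -0.77 (SE 0.128) and an edgeR adjusted p of 0.019.

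In the BMP branch, the ligand genes showed no difference that the libraries could resolve. Bmp4, the main BMP ligand gene here, had 18.0 and 42.3 CPM in WT and 16.1 and 39.9 CPM in Haspin-KO. Replicate 2 was the higher library in both groups, 2.35 times replicate 1 in WT and 2.48 times in Haspin-KO. The log2 fold change of -0.10 therefore had a wide SE of 0.418. Bmp7 had 10.4 and 9.92 CPM in WT and 11.3 and 7.07 CPM in Haspin-KO, and its groups overlapped (log2 fold change -0.15, SE 0.215).

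The BMP antagonist genes were low in both groups. Grem1, which encodes Gremlin, lies on the minus strand of chromosome 2 (mm10, chr2:113746164-113758646, ENSMUSG00000074934). The 250 bases before its RefSeq start (GRCm38.p6, chr2:113758649-113758898, minus strand, printed in the direction of transcription) are shown as those of the DEG of the BMP branch. The capitals mark GGCGCC, a GC-rich sequence that Smads are known to bind, starting 78 bases before the start. It was held on either strand by 9.59% of all such windows, and a match of letters is no evidence of binding. Windows of Bmpr1a, Bmpr2, Chrd, Id2, Id4, Ltbp4, Smad5 and Tgfbr1, which were not DEGs, held GGCGCC too.
Grem1 promoter: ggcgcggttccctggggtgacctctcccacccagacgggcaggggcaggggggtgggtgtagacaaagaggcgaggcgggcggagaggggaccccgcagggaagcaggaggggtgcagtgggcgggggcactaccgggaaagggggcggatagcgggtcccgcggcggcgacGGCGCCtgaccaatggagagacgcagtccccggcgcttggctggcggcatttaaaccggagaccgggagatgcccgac

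Grem1 had 50 and 22 counts in WT, or 2.29 and 1.27 CPM, and 0 and 0 counts in Haspin-KO. Both WT libraries were thus above both Haspin-KO libraries. The mean WT level of Grem1 was 8.49 times a floor of 3 counts per Haspin-KO library, with the spread of WT left out. The edgeR adjusted p was 0.0125, and Grem1 was not a DEG without WT replicate 1. Chrd, which encodes the BMP antagonist Chordin, was the most abundant BMP antagonist gene, with 3.94 and 5.71 CPM in WT and 2.72 and 4.97 CPM in Haspin-KO. Its groups overlapped (log2 fold change -0.32, SE 0.314). Nog had 9 and 12 counts in WT and 5 and 9 counts in Haspin-KO and was not tested.

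The 4 Id genes are targets of BMP signalling that encode inhibitors of helix-loop-helix factors. Id1, Id2 and Id4 had both Haspin-KO libraries above both WT libraries, an order that 25.3% of all genes tested had. The groups of Id3 overlapped, and differences among the Id genes were not tested. Id1 (chr2:152736251-152737410, plus strand) had 12.5 and 12.6 CPM in WT and 20.3 and 18.3 CPM in Haspin-KO. Both Haspin-KO libraries were above both WT libraries, and Id1 rose by 53.7% (log2 fold change 0.62, SE 0.132, edgeR adjusted p = 0.0434). The adjusted p was 0.0629 with DESeq2 and 0.0517 with library totals in edgeR, and it was 0.201 without WT replicate 1, 0.145 without WT replicate 2 and 0.0629 without Haspin-KO replicate 1. Id2 had 3.30 and 2.65 CPM in WT and 6.13 and 4.41 CPM in Haspin-KO, without overlap (log2 fold change 0.82, SE 0.258, edgeR adjusted p = 0.121). Id4 had 4.94 and 4.96 CPM in WT and 6.13 and 5.67 CPM in Haspin-KO, also without overlap (log2 fold change 0.25, SE 0.198, edgeR adjusted p = 0.502).

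Id3, the most abundant Id gene, had 34.9 and 75.3 CPM in WT and 33.0 and 67.9 CPM in Haspin-KO. It shared the library pattern of Bmp4, with replicate 2 at 2.16 times replicate 1 in WT and 2.06 times in Haspin-KO, and its log2 fold change was -0.12 (SE 0.356). Bmp4 and Id3 were the 2 of 41 members, or 4.88%, in which replicate 2 exceeded replicate 1 by more than 1.5 times in both groups, beside 1.14% of all genes tested. Without Haspin-KO replicate 2 the fitted log2 fold changes were -0.90 for Bmp4 (edgeR adjusted p = 0.0153) and -0.74 for Id3 (edgeR adjusted p = 0.0215). Without WT replicate 2 they were 0.64 and 0.53. Each of these fits sets unequal replicate numbers against each other.

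**Figure D4:**
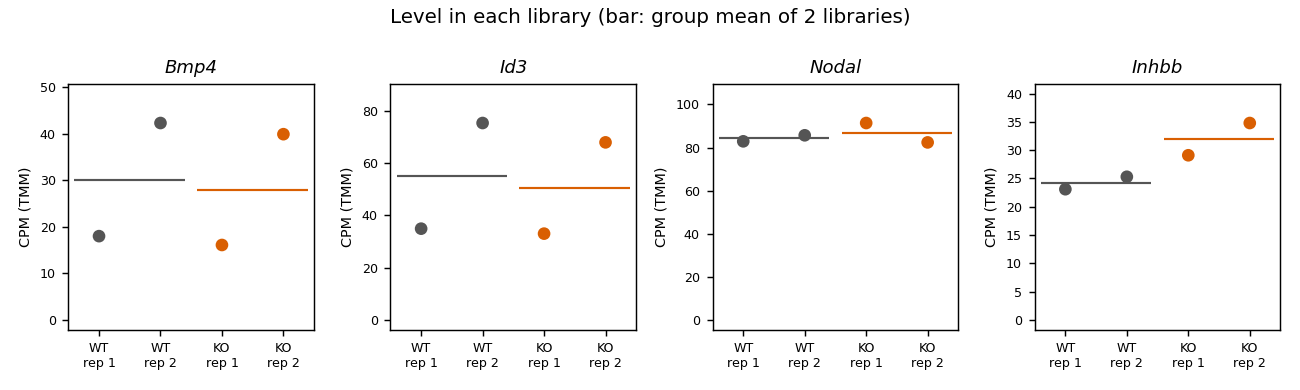
TMM-scaled CPM in each library for Bmp4, Id3, Nodal and Inhbb, with points for libraries and bars for the mean of 2 libraries. In Bmp4 and Id3 replicate 2 lies far above replicate 1 in WT and in Haspin-KO alike, whereas Nodal varies little and Inhbb is higher in both Haspin-KO libraries.

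Further genes of the pathway were read from lists. Of 53 other ligands, receptors, antagonists and Smad partners, 36 were tested, 0 were higher DEGs and 1 was a lower DEG, with a median log2 fold change of -0.05. Among the genes that the deposited table assigns to the KEGG TGF-beta signaling pathway, 87 were not members, 47 of those were tested, and Thbs1 was the 1 DEG, lower in Haspin-KO. Thbs1 encodes thrombospondin, a matrix protein that can activate latent TGF-beta. It had 89.4 and 61.9 CPM in WT and 4.73 and 3.36 CPM in Haspin-KO (log2 fold change -4.22, SE 0.219, edgeR adjusted p = 2.1e-05).

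Genes known to respond to each branch were counted in the same way. Of 20 TGF-beta response genes, all tested, 6 were lower DEGs and 0 were higher DEGs, with a median log2 fold change of -0.16. The 3 with the smallest p were the collagen genes Col1a2 and Col1a1 and Thbs1. Col1a2 had 29.5 and 24.2 CPM in WT and 0.487 and 0.49 CPM in Haspin-KO, and Col1a1 had 48.7 and 33.2 CPM in WT and 1.67 and 1.68 CPM in Haspin-KO. The lower DEGs also included Acta2 and Tagln, with log2 fold changes of -3.43 and -1.30. Of these 6 genes, Col1a1, Col1a2 and Acta2 are also on the fibroblast list. Among the 17 response genes outside it 3 were lower DEGs, beside 0.501% of all genes tested. The fibroblast list holds 20 genes only, and the part of fibroblast RNA in these 3 was not tested. The lists were chosen with earlier results known, so these shares are no test. Of 13 Nodal and activin response genes, 12 were tested and 0 were DEGs, with a median of -0.15, and 5 of the 13 are members. Of 15 BMP response genes, 14 were tested and 0 were DEGs, with a median of 0.12, and 6 of the 15 are members. At an adjusted p under 0.05 without a minimum fold, Lefty2 was the 1 Nodal and activin response gene called and Id1 the 1 BMP response gene called.

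Several members that fell, such as Inhba, Grem1 and Ltbp2, are known to be expressed by fibroblasts too, and the fibroblast markers were lower in the same libraries. Of 20 fibroblast markers, 15 were tested, 11 were lower DEGs and 0 were higher DEGs, with a median log2 fold change of -4.61. Besides the collagen genes, the lowest p belonged to Tnc, with 22.6 and 17.5 CPM in WT and 0.209 and 0.21 CPM in Haspin-KO. Lum was at 0 counts in all 4 libraries, and Dcn, Twist2 and Fap had at most 4 counts in any library. Inhba, Tgfb3, Ltbp2, Lrrc32, Grem1 and Thbs1 fell in the same direction as these markers, and the part of fibroblast RNA in their difference was not tested.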

How the data were processed

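RNA was sequenced from 2 WT and 2 Haspin-KO libraries of E14 mESCs, grouped by the sample labels. According to the submitters' processing notes, the authors used cutadapt (1.9.1), HISAT2 (2.0.1), HTSeq (0.6.1) and DESeq2 with mm10. The strand setting and annotation release are not given in the sources used here. The authors deposited raw counts per gene, without normalization, and FPKM values, which equal the counts over exon length and library total in 100% of values within rounding. The table holds no columns of the authors' own comparisons.

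Counts were tested in R (4.3.3) with edgeR (4.0.16), using its filter on low counts, TMM scaling and the quasi-likelihood test, with Benjamini-Hochberg adjustment over all genes tested. Standard errors are the log2 fold change over the square root of F. A gene at 3 counts or fewer was taken as at the floor, which is 0.137 to 0.21 CPM. Intervals and floors cover counting error only. An exact permutation test of 2 against 2 libraries cannot go below p = 0.333 and was not used. Alternatives were DESeq2 (1.42.0), limma (3.58.1) on log2(FPKM + 0.1) or log2(FPKM + 1) for genes with at least 0.5 FPKM in at least 2 libraries, other scalings and filters, other thresholds, the replicate number as a block, and each library left out in turn, where the lone library is assumed to vary like the other group. The sum of Lefty1 and Lefty2 was added after seeing the data. The edgeR fits with and without the block, DESeq2 and limma at a pseudocount of 0.1 were run on simulated data. The outcome is not reported here, and no call of a member rests on it.

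Members and lists were chosen with earlier results of these data known. All members are accounted for, with values in every library for members called and for the most abundant of each branch and role, and from the other lists up to 3 called genes with the smallest p are named. Other members with values in every library were chosen after their values were seen. Promoter windows came from RefSeq (GRCm38.p6), which matched 29 of the 43 members, and were searched on both strands for GTCTAGAC (a Smad palindrome), GGCGCC (a GC-rich Smad element), AATCCACA (a Foxh1 element), TGAGTCA (an AP-1 element), GGAATG (a TEAD element) and TATAAA (the TATA box). Overlaps and shared 50-base words came from GENCODE M21 (GRCm38), in which all 43 members were found and 13 shared exon bases with another gene. Biopython (1.88) and matplotlib (3.10.9) were used. Some single genes of the lists are not reported here.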

Additional observations from a re-analysis of the deposited data

How the results depend on the processing

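Lower DEGs among members, 5 in the comparison as reported, numbered 2 with DESeq2, 2 with a minimum of 10 counts in every library, 3 at an adjusted p under 0.01 and 0 with limma at pseudocounts of 0.1 and of 1. With limma, 0 of all genes were DEGs, and Haspin had log2 fold changes of -1.59 (adjusted p = 0.115) and -1.42 (adjusted p = 0.102). DESeq2 gave an adjusted p for 35 of the 43 members. The minimum of 10 counts left 37 for testing and by its construction removed Inhba, Grem1, Tgfb3 and Lrrc32 for their low Haspin-KO counts, so its lower DEGs were Ltbp2 and Ltbp3. Leaving out each library gave 2 to 6 lower and 0 to 1 higher members, the higher being Id2 without Haspin-KO replicate 2. Members with an adjusted p under 0.05 at any fold, 7 as reported, numbered 3 with DESeq2, 4 with the minimum of 10 counts, 0 with limma and 3 to 12 with each library left out. With the replicate block they numbered 18 of 41, beside 22.6% of all genes tested (2.5% without it), and lower DEGs numbered 6, while DEGs over all genes numbered 407 (129 without it). The block added Inhbb, Ltbp3, Tgfbr1, Tgfbr3, Acvr1b, Tdgf1, Lefty1, Bmpr2, Id2, Smad7 and Skil, and it gave Bmp4 a log2 fold change of -0.12 (SE 0.1, adjusted p = 0.437) and Id3 one of -0.12 (SE 0.0794, adjusted p = 0.29). The labels say nothing of a shared batch, there are 2 pairs only, and the differences of replicate 2 from replicate 1 in both groups correlated at r = 0.338 across 15580 genes.

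The median of the TGF-beta/activin branch was 0.02 with the minimum of 10 counts, 0.06 and 0.05 with limma at pseudocounts of 0.1 and 1, and -0.06 to 0.01 with each library left out. With each library left out, the Nodal median ranged from -0.27 to -0.11 and the BMP median from 0.03 to 0.25, and the BMP median was -0.07 with no filter. The cause of these shifts was not tested. Signs changed for 17 members that were not called. Their log2 fold changes with each library left out ranged from -0.72 to 0.03 for Tgfb2, from -0.01 to 0.27 for Fst, from -0.23 to 0.13 for Ltbp4, from -0.06 to 0.10 for Tgfbr2, from -0.19 to 0.14 for Acvr2b, from -0.01 to 0.22 for Smad2, from -0.31 to 0.21 for Smad3, from -0.03 to 0.11 for Nodal, from -0.16 to 0.02 for Gdf3, from -0.90 to 0.64 for Bmp4, from -0.52 to 0.15 for Bmp7, from -0.82 to 0.06 for Chrd, from -0.11 to 0.02 for Smad1, from -0.74 to 0.53 for Id3, from -0.26 to 0.08 for Smad4, from -0.65 to 0.19 for Smad6, from -0.01 to 0.54 for Smad7. With no filter, Tgfbr2 was at -0.01. No called member changed sign under the alternatives run, and the same 5 DEGs were called in edgeR scaled by library totals or by the size factors of DESeq2.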

Other observations

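Among the other marker lists, 6 of 12 tested genes that mark 2-cell-like cells were higher DEGs and 0 were lower DEGs, with a median log2 fold change of 1.24 and summed levels of 80.0 and 74.1 CPM in WT and of 204 and 159 CPM in Haspin-KO. Zscan4d, Usp17lb and Zscan4c had the smallest p, with log2 fold changes of 1.39, 1.52 and 1.23. The lists of primitive endoderm (8 tested), mesendoderm (5 tested) and trophoblast markers (5 tested) held 0 DEGs by edgeR, with 2, 1 and 0 genes at an unadjusted p under 0.05. Among them Col4a1, a primitive endoderm marker, had an edgeR adjusted p of 0.0359 with a log2 fold change of 0.40. Zscan4 and Usp17l genes have near-identical copies, so their reads may be split among copies or left uncounted.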
